A study of Mus musculus with 12 samples.

Results

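The apical face of a colonic absorptive cell carries a brush border, a carpet of microvilli, and the 9 genes described here encode parts of its structure. They are Vil1, Espn and Pls1 for the proteins that bundle actin in the microvillus core, Ezr for the linker between that core and the membrane, Myo1a and Myo7b for motors, and Cdhr2, Cdhr5 and Ush1c for the complex that ties neighbouring microvilli together at their tips. The genes were taken by symbol from the deposited count tables, all 9 were found among 23420 gene symbols, and all 9 passed the filter on low counts that left 12863 genes for testing. The lowest count of any of them in any library was 41, for Espn.

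Microvilli are built on a core of parallel actin filaments, which villin, espin and plastin 1 hold together. Ezrin and the motor myosin 1a connect the side of this core to the overlying membrane. At the tips, the protocadherins CDHR2 and CDHR5 on adjacent microvilli bind each other, and inside the cell they are held by harmonin, the product of Ush1c, by the scaffold ANKS4B and by the motor myosin 7b with its light chain CALML4. Brush border assembly is a known feature of absorptive cells as they leave the crypt base and differentiate.

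The 12 RNA libraries, 3 in each of 4 groups, set colonic epithelium grown in culture beside epithelium taken from the mouse. The groups are confluent monolayers at day 3, day 4 and day 5 and freshly isolated crypts, all from wild-type mouse colon (labelled WT, age 6 to 10 weeks). Crypt cells were first grown as monolayers on collagen and then replated on scaffolds with graded cross-linking, so every monolayer library comes from passaged cells while the crypts were not cultured. Electrical resistance across the monolayers was, per the labels, 526 ± 56 ohm cm2 (day 3), 623 ± 15 ohm cm2 (day 4) and 407 ± 53 ohm cm2 (day 5), with no word on the type of error. The labels do not say if the replicates are separate animals or cultures, so the p-values below measure the spread between these libraries, which may be technical.

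Library totals ran from 4518314 to 14290393 counts in genes, and 3 counts, the floor used here, correspond to 0.215 to 0.604 CPM (counts per 1000000 counts in genes, scaled by TMM factors, a correction for differences in RNA composition). The markers of epithelium were all detected in all 4 groups, with a summed level of 13443 ± 1279 CPM in monolayers (SD, n = 9) and 10551 ± 499 CPM in crypts (SD, n = 3). Tested singly, 3 of the 8 were higher in monolayers and 3 lower (median log2 fold change 0.05), beside 30.7% and 32.8% of all genes tested. One of those higher was Krt18, at 2337 CPM in monolayers and 518 CPM in crypts, which is also in the terminal web list below. Absorptive colonocyte markers summed to 2142 ± 506 CPM in monolayers and 8035 ± 1404 CPM in crypts, and goblet cell markers to 43.7 ± 23.9 CPM in monolayers and 40352 ± 8939 CPM in crypts. Markers of fibroblasts and smooth muscle summed to 0.798 to 5.04 CPM across monolayer libraries, with Dcn and Lum at 0, and to 14.1 to 88.3 CPM in crypts. Leukocyte markers summed to 27.7 to 55.4 CPM in monolayers, with Cd3g at 0, and to 30.1 to 61.5 CPM in crypts. Replicate 1 of day 5 held the fewest detected genes, 12293, and no call on any of the 9 genes was lost or gained without it.

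The 9 genes did not move as a unit between monolayers and crypts. With the 3 monolayer days averaged, Ezr, Pls1, Myo7b and Cdhr2 were higher in monolayers, and Vil1, Espn, Myo1a, Cdhr5 and Ush1c were lower. The changes ran from 2.1-fold higher for Ezr (log2 fold change 1.07) to a level of 10.2% of the crypt mean for Myo1a. Between day 3 and day 5 Espn, Cdhr5, Ush1c and Cdhr2 rose, and none of the 9 fell. By edgeR's quasi-likelihood test with Benjamini-Hochberg adjustment at a threshold of 0.05, 4 genes were higher and 5 lower with the 3 monolayer days averaged, and 63.5% of all genes tested were called in that comparison, 30.7% as higher and 32.8% as lower. With that background, the number of calls alone singles nothing out. Over all genes tested, 3943 were higher and 4220 lower, and scaled by library totals alone 3094 were higher and 5120 lower. The 9 genes had a median absolute log2 fold change of 0.68, against 0.66 over all genes tested. In 7 of the 9 genes the 9 monolayer libraries and the 3 crypt libraries did not overlap, which held for 45.9% of all genes tested. RNA was measured in bulk, so fewer cells of a type and less RNA per cell cannot be told apart.

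**Figure D1:**
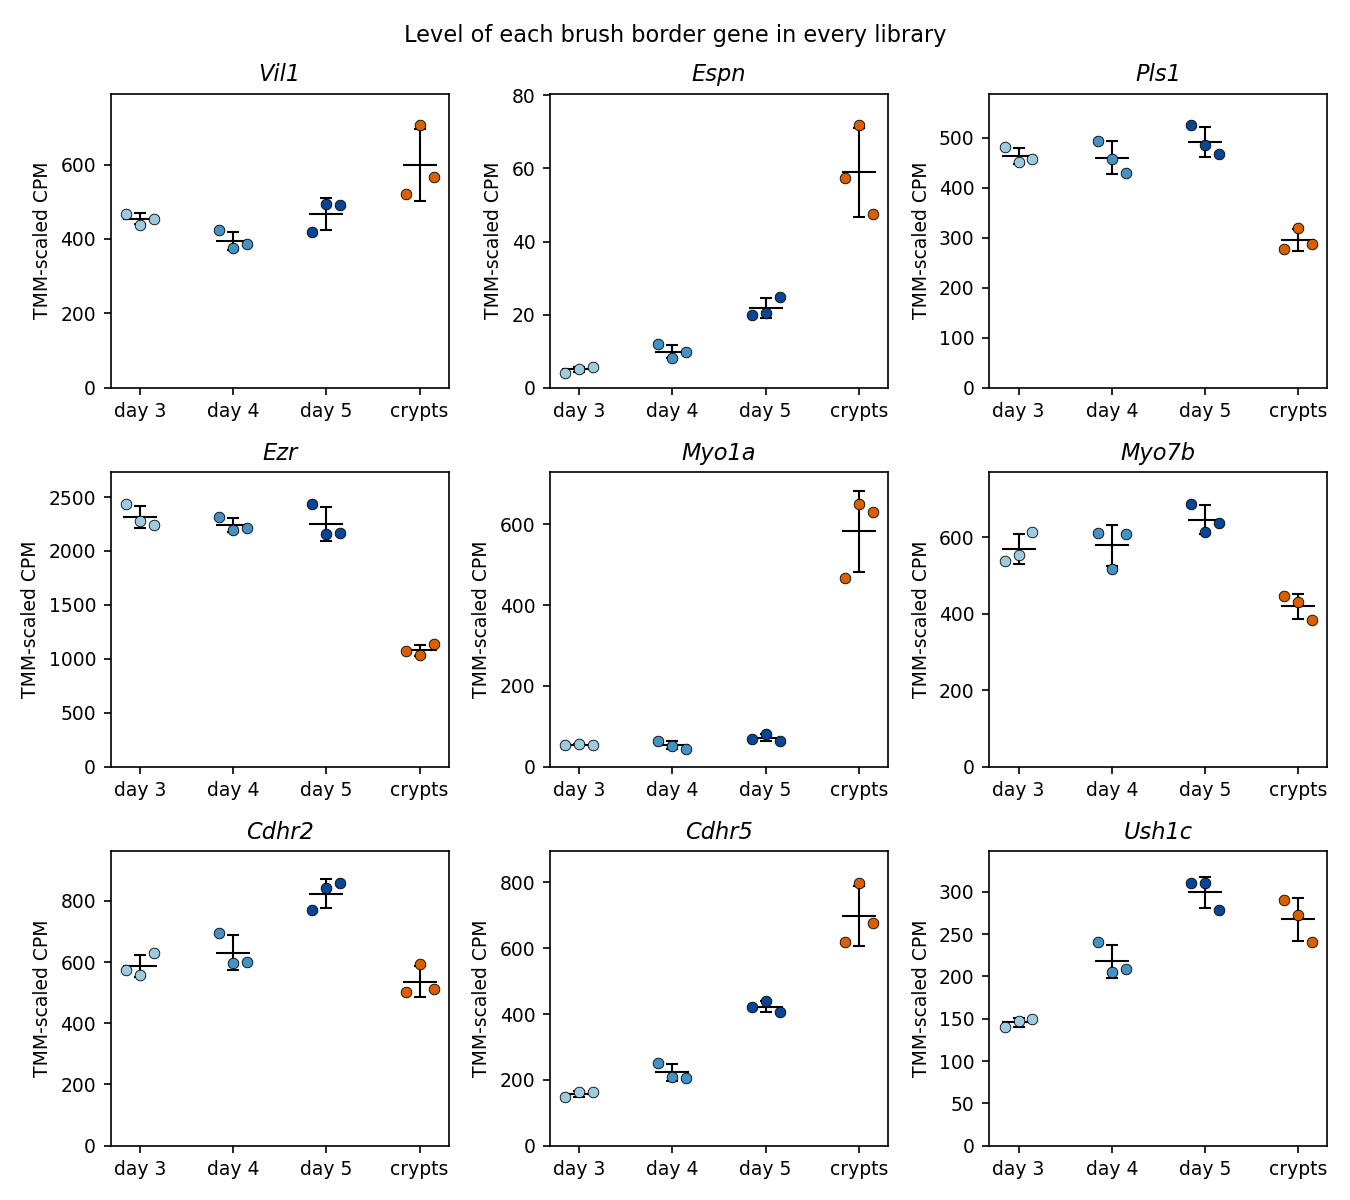
Level of each of the 9 genes in TMM-scaled CPM (y axis, from 0) in each library (points), by group (x axis), with horizontal bars for the group mean and error bars for the SD (n = 3). Ezr, Pls1 and Myo7b sit higher in every monolayer library than in any crypt library, Vil1, Espn, Myo1a and Cdhr5 lower, and Espn, Cdhr5 and Ush1c climb by day.

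Proximal promoter sequences are shown for 4 of the genes, picked by their changes against crypts with the monolayer days averaged. Ezr and Myo1a had the largest rise and the largest fall among the 9. Cdhr2 and Cdhr5 are binding partners that moved in opposite directions, although the Cdhr2 call depended on scaling. The sequences are the 250 bases before the annotated start, from RefSeq on build GRCm38.p6, printed 5′ to 3′ on the strand of the gene. The table of promoters held 8 of the 9 genes; Myo7b had no entry. Both strands were searched for CAAAGTCCA (an HNF4 motif), GTTAAT (part of the HNF1 motif), TTTAT (CDX), GGAATG (TEAD), TGANTCA (AP-1) and GGGCGG (the GC box), and matches are in capitals. The promoter of Ezr, at chr17:6782781-6783030 on the minus strand, held TGANTCA from 32 to 26 bases before the start, a motif that reads the same on both strands, and GGGCGG on the opposite strand at 48 to 43 and at 17 to 12 bases before it. That of Myo1a, at chr10:127705006-127705255 on the plus strand, held none of these motifs. That of Cdhr2, at chr13:54701213-54701462 on the plus strand, held GTTAAT from 54 to 49 bases before the start. That of Cdhr5, at chr7:141276787-141277036 on the minus strand, held TTTAT on the opposite strand, printed as ATAAA, from 38 to 34 bases before the start, and these letters can also be part of a TATA box.
Ezr: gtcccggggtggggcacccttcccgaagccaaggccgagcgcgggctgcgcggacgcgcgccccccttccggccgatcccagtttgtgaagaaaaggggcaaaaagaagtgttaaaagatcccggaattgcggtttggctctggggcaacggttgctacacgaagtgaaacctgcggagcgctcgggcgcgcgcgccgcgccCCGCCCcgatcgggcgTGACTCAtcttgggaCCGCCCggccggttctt
Myo1a: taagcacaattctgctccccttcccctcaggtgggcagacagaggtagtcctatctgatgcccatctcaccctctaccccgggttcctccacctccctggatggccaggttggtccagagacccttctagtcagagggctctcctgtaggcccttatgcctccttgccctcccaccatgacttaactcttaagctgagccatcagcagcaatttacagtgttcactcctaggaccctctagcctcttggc
Cdhr2: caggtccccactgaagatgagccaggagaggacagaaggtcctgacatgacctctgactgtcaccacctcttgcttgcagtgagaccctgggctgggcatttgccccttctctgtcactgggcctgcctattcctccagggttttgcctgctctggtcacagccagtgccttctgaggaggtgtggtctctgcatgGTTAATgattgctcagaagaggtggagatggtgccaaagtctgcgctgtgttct
Cdhr5: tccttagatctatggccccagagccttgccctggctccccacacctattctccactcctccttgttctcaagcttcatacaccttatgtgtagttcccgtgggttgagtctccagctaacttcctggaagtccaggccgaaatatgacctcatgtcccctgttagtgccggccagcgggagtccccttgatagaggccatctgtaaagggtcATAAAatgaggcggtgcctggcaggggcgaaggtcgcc
Of 32817 promoters of the same length, TGANTCA was present in 6.75%, GTTAAT in 6.44%, TTTAT in 37.3%, GGGCGG in 32.7%, GGAATG in 12.6% and CAAAGTCCA in 0.384%. Among the 8 genes with a promoter, TGANTCA was found in 1, GTTAAT in 1, TTTAT in 2 (Cdhr5 and a downstream promoter of Espn), GGGCGG in 4 (Espn, Ezr, Ush1c and Vil1) and the HNF4 and TEAD motifs in 0. These are matches of letters in a short window and not evidence of binding.

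The actin bundlers of the core split. Villin, the product of Vil1, bundles actin and severs it when calcium rises. Vil1 stood at 468, 439 and 455 CPM at day 3, 423, 376 and 388 CPM at day 4, 419, 494 and 491 CPM at day 5, and 521, 707 and 567 CPM in crypts. All 9 monolayer libraries lay below the lowest crypt library, and crypts replicate 2 was the highest of all. With the days averaged, Vil1 was at 439 ± 42.1 CPM in monolayers (SD, n = 9) and 598 ± 96.5 CPM in crypts (SD, n = 3), a log2 fold change of -0.45 ± 0.08 (SE; edgeR adjusted p = 0.000101). By day the log2 fold change of Vil1 against crypts was -0.40 at day 3, -0.60 at day 4 and -0.36 at day 5. With crypts replicate 2 left out, the Vil1 change was -0.26 at day 3, and at day 5 it was -0.22 and no longer passed (edgeR adjusted p = 0.0564). Scaled by library totals alone it was -0.55 at day 5.

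Espin, the product of Espn, bundles actin tightly and is required for the stereocilia of inner ear hair cells as well. Espn had 4.09, 5.16 and 5.68 CPM at day 3, 11.9, 8.13 and 9.68 CPM at day 4, 19.9, 20.4 and 24.9 CPM at day 5, and 57.4, 71.9 and 47.4 CPM in crypts. No 2 of the 4 groups overlapped, and the order ran day 3, day 4, day 5, crypts. As a share of the crypt mean, Espn was at 8.45% at day 3, 16.8% at day 4 and 37.0% at day 5. Its log2 fold change was -2.52 ± 0.15 in monolayers against crypts (SE; edgeR adjusted p = 4.47e-11). Between days, Espn rose by 2.12 ± 0.22 on the log2 scale at day 5 against day 3 (SE; edgeR adjusted p = 1.74e-06). The steps were 0.98 at day 4 against day 3 (edgeR adjusted p = 0.0199) and 1.13 at day 5 against day 4 (edgeR adjusted p = 0.00213). The first step was carried by few counts, 41 in day 3 replicate 1 with an exact 95% Poisson interval of 29.4 to 55.6 counts (counting error only). It no longer passed without any single one of day 3 replicates 1, 2 and 3 and day 4 replicates 1 and 3, with values of 0.82 to 1.09 on the log2 scale in those refits. The annotation lists 15 protein-coding transcripts of Espn, which gene counts do not separate.

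Plastin 1, also called intestinal fimbrin, is encoded by Pls1. Pls1 stood at 482, 451 and 458 CPM at day 3, 494, 457 and 429 CPM at day 4, 525, 485 and 467 CPM at day 5, and 277, 319 and 288 CPM in crypts. Every monolayer library was above every crypt library, and the 3 days overlapped one another. The log2 fold change of Pls1 was 0.68 ± 0.07 in monolayers against crypts (SE; edgeR adjusted p = 1.52e-07). At day 5 against day 3 it was 0.09 ± 0.08 (SE; edgeR adjusted p = 0.523), which did not pass. Within a library, the ratio of Pls1 to Espn counts averaged 95.3 at day 3, 47.4 at day 4, 22.9 at day 5 and 5.11 in crypts, a measure that needs no scaling between libraries.

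Ezrin links actin to membrane proteins once it is opened by phosphorylation. Ezr stood at 2435, 2277 and 2244 CPM at day 3, 2315, 2192 and 2214 CPM at day 4, 2436, 2161 and 2165 CPM at day 5, and 1069, 1038 and 1137 CPM in crypts. The monolayer libraries all lay between 2161 and 2436 CPM with the days overlapping, and the crypt libraries all lay between 1038 and 1137 CPM. The log2 fold change of Ezr was 1.07 ± 0.07 in monolayers against crypts (SE; edgeR adjusted p = 8.51e-11), and -0.04 ± 0.08 at day 5 against day 3 (SE; edgeR adjusted p = 0.757), which did not pass. Per library, Ezr counts were 5.11 times the Vil1 counts at day 3, 5.67 times at day 4, 4.86 times at day 5 and 1.84 times in crypts.

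The motors moved in opposite directions. Myosin 1a, a class I motor of the intestinal brush border, is encoded by Myo1a. Myo1a stood at 52.9, 55.5 and 53.9 CPM at day 3, 64.7, 52.2 and 43.9 CPM at day 4, 67.9, 80.9 and 64.4 CPM at day 5, and 467, 650 and 630 CPM in crypts. The highest monolayer library was far below the lowest crypt library. Its log2 fold change was -3.30 ± 0.10 in monolayers against crypts (SE; edgeR adjusted p = 2.85e-15), the largest fall among the 9 genes with the days averaged. At day 3 Espn was lower still, at -3.55 against -3.43 for Myo1a. As a share of the crypt mean, Myo1a was at 9.29% at day 3, 9.21% at day 4 and 12.2% at day 5. At day 5 against day 3 all 3 day 5 libraries were above all 3 day 3 libraries, with a log2 fold change of 0.40 ± 0.14 (SE; edgeR adjusted p = 0.0536), which did not pass. That value lay close to the threshold: with DESeq2, with no filter on low counts and with the compared groups alone it passed (adjusted p of 0.0307, 0.00431 and 0.0167 from DESeq2, edgeR and edgeR in that order). The Myo1a rise also passed in 5 refits with 1 library left out.

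Myosin 7b carries the adhesion complex toward microvillus tips and is encoded by Myo7b, on chromosome 18. Myo7b stood at 538, 554 and 613 CPM at day 3, 610, 516 and 609 CPM at day 4, 686, 614 and 637 CPM at day 5, and 446, 429 and 383 CPM in crypts. All 9 monolayer libraries were above all 3 crypt libraries. The log2 fold change of Myo7b was 0.51 ± 0.08 in monolayers against crypts (SE; edgeR adjusted p = 1.26e-05), and 0.18 ± 0.09 at day 5 against day 3 (SE; edgeR adjusted p = 0.172), which did not pass. Scaled by library totals alone, the change of Myo7b in monolayers against crypts was 0.33, at day 3 0.27 and at day 4 0.29, and each still passed. The ratio of Myo7b to Myo1a counts within a library averaged 10.5 at day 3, 11.1 at day 4, 9.20 at day 5 and 0.741 in crypts, and the lowest monolayer ratio was 7.59 against a highest crypt ratio of 0.955.

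**Figure D2:**
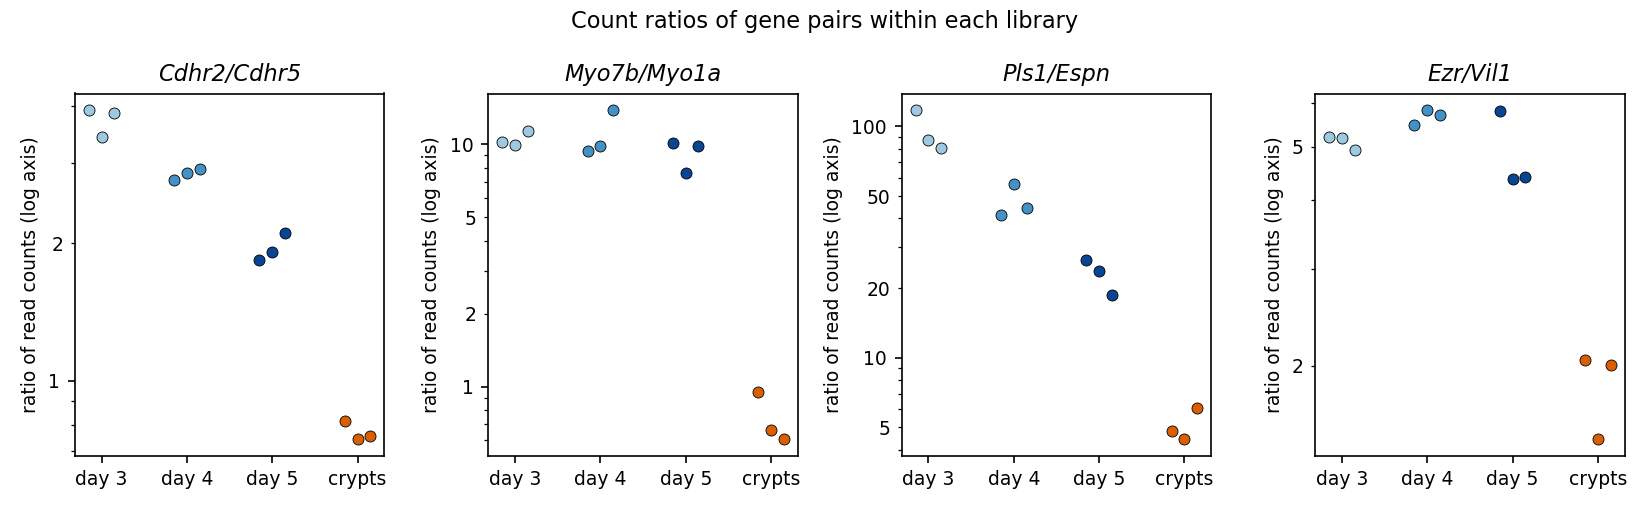
Ratio of read counts of 2 genes within each library (y axis, log scale) for 4 pairs, by group (x axis), with 1 point per library. In every pair all monolayer libraries lie above all crypt libraries, and the Cdhr2 to Cdhr5 and Pls1 to Espn ratios are lower at each later day.

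The 2 protocadherins that bind each other between microvilli changed in opposite directions. CDHR2, or protocadherin 24, is the partner on one microvillus. Cdhr2 stood at 575, 560 and 629 CPM at day 3, 696, 596 and 601 CPM at day 4, 771, 842 and 859 CPM at day 5, and 503, 593 and 511 CPM in crypts. In 7 of 9 monolayer libraries it was above every crypt library, and day 3 overlapped crypts. Averaged over the days, the log2 fold change of Cdhr2 was 0.33 ± 0.08 in monolayers against crypts (SE; edgeR adjusted p = 0.000956). This call depended on scaling, since with library totals alone it was 0.15 (edgeR adjusted p = 0.0977). By day it was 0.13 at day 3, which did not pass (edgeR adjusted p = 0.23), 0.23 at day 4 (edgeR adjusted p = 0.0353) and 0.62 at day 5 (edgeR adjusted p = 1.26e-05). The day 4 call was lost with RLE scaling, with library totals, with the compared groups alone and without day 4 replicate 1, crypts replicate 1 or crypts replicate 3, at log2 fold changes of 0.06 to 0.23. Between days, Cdhr2 rose by 0.49 ± 0.09 on the log2 scale at day 5 against day 3 (SE; edgeR adjusted p = 0.000715). Its rise at day 5 against day 4 was 0.39 (edgeR adjusted p = 0.0118), and it no longer passed without day 4 replicate 2, day 4 replicate 3 or day 5 replicate 2, at 0.35 to 0.37.

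CDHR5, a mucin-like protocadherin, is the other partner. Cdhr5 stood at 146, 163 and 163 CPM at day 3, 252, 209 and 206 CPM at day 4, 420, 440 and 407 CPM at day 5, and 618, 798 and 675 CPM in crypts. No 2 of the 4 groups overlapped, in the order day 3, day 4, day 5, crypts, the same order as Espn. The log2 fold change of Cdhr5 was -1.51 ± 0.08 in monolayers against crypts (SE; edgeR adjusted p = 4.63e-12). It reached 22.6% of the crypt mean at day 3, 31.9% at day 4 and 60.6% at day 5. Between days Cdhr5 rose by 0.50 at day 4 against day 3 (edgeR adjusted p = 0.0113), by 0.92 at day 5 against day 4 (edgeR adjusted p = 1.41e-05) and by 1.42 ± 0.10 at day 5 against day 3 (SE; edgeR adjusted p = 3.34e-08), on the log2 scale. The first of these steps no longer passed without day 3 replicate 1, at 0.45 (edgeR adjusted p = 0.0833), or without day 4 replicate 1, at 0.40 (edgeR adjusted p = 0.111). Cdhr2 counts per Cdhr5 count averaged 3.74 at day 3, 2.84 at day 4, 1.95 at day 5 and 0.772 in crypts.

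Harmonin, the product of Ush1c, is the scaffold that gathers the cytoplasmic ends of the complex and is mutated in a form of Usher syndrome in people. Ush1c stood at 140, 147 and 150 CPM at day 3, 240, 205 and 208 CPM at day 4, 310, 310 and 279 CPM at day 5, and 290, 273 and 240 CPM in crypts. Day 3 lay below crypts with no overlap, day 4 overlapped the lower crypt library and day 5 overlapped the upper ones. The log2 fold change of Ush1c was -0.88 ± 0.09 at day 3 (SE; edgeR adjusted p = 2.26e-07), -0.30 ± 0.09 at day 4 (SE; edgeR adjusted p = 0.0114) and 0.16 ± 0.09 at day 5 (SE; edgeR adjusted p = 0.143), all against crypts. The day 4 value no longer passed without day 4 replicate 2, day 4 replicate 3 or crypts replicate 1, at -0.23 to -0.25. Averaged over the days it was -0.34 ± 0.07 (SE; edgeR adjusted p = 0.000715), a mean over days that differ, and with library totals alone -0.52 (and -0.47 at day 4). Ush1c rose at each step between days, by 0.58 at day 4 against day 3 (edgeR adjusted p = 0.00241), by 0.46 at day 5 against day 4 (edgeR adjusted p = 0.00419) and by 1.04 ± 0.09 at day 5 against day 3 (SE; edgeR adjusted p = 3.94e-07), on the log2 scale.

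**Figure D3:**
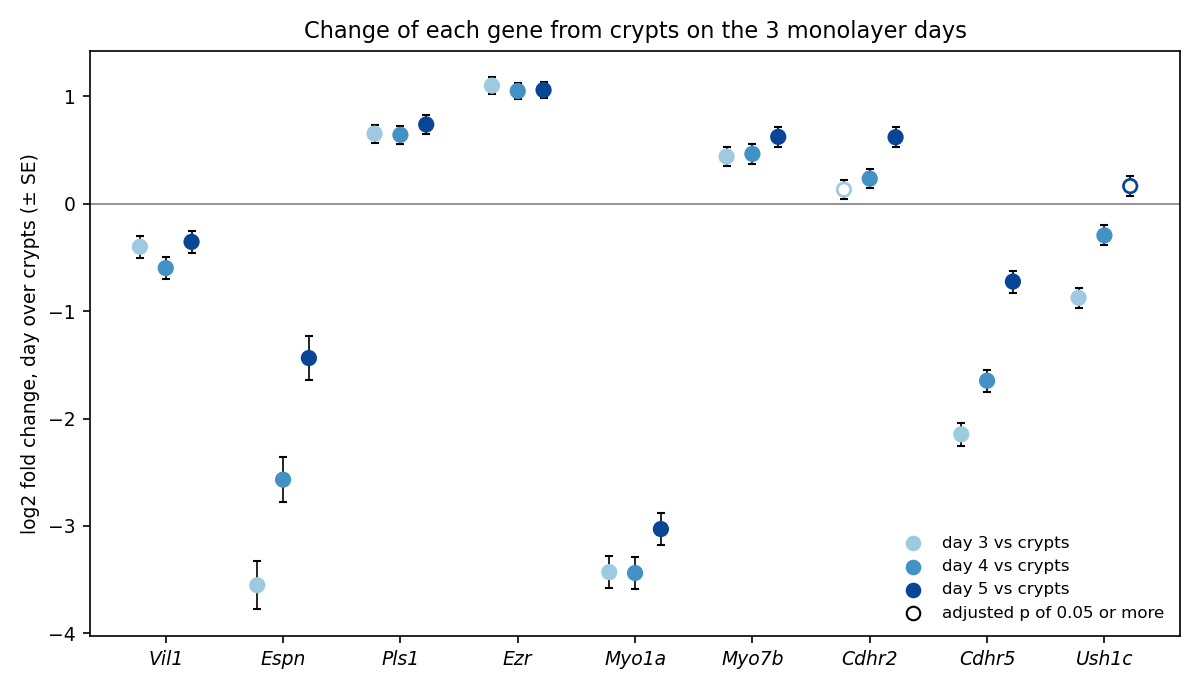
Log2 fold change of each gene at day 3, day 4 and day 5 over crypts (y axis), with error bars for the SE from edgeR. Open circles did not pass the adjusted threshold, and the day 5 points of Espn, Cdhr5, Ush1c and Cdhr2 stand above their day 3 points. The 3 comparisons share the crypt libraries.

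Between days, 4 of the 9 genes rose at day 5 against day 3 and 0 fell, by edgeR with Benjamini-Hochberg adjustment; 20.4% of all genes tested were called in that comparison, 9.9% as higher and 10.5% as lower. Read against 9.9%, 4 of 9 is a larger share, in a list chosen with results of these data known. Over the settings tried, 4 to 5 of the 9 passed. The median log2 fold change was 0.40 for the 9 genes and -0.01 for all genes tested. At day 4 against day 3, 3 rose and 0 fell, against 2.77% called among all genes (1.59% higher and 1.17% lower), and the number of the 9 that passed ran from 1 to 3 over the settings tried. At day 5 against day 4, 4 rose and 0 fell, against 7.56% called (3.36% higher and 4.2% lower), with 3 to 5 passing over the settings. Groups did not overlap for 6 of the 9 genes at day 5 against day 3, for 5 at day 5 against day 4 and for 4 at day 4 against day 3, where the shares over all genes were 40.8%, 27.1% and 27.1% in that order.

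Against crypts, 3 of the 9 genes were called higher and 5 lower at day 3, where 56.3% of all genes were called, 28.4% as higher and 27.9% as lower. The calls were 4 higher and 5 lower at day 4, beside 57.1% of all genes, 28.7% as higher and 28.4% as lower. They were 4 higher and 4 lower at day 5, beside 57.3% of all genes, 28.4% as higher and 28.9% as lower. The libraries of a day and of crypts did not overlap for 8 of the 9 genes on each day, against 64.4% of all genes at day 3, 62.3% at day 4 and 59.2% at day 5. These 3 comparisons share the crypt libraries and are set side by side, not as independent results. Absorptive colonocyte markers moved over the same days. Their sum was 1848 CPM at day 3, 1795 CPM at day 4, 2782 CPM at day 5 and 8035 CPM in crypts. Tested singly, 8 of the 10 rose at day 5 against day 3 and 1 fell, with a median log2 fold change of 2. Among all genes, 9.9% were higher and 10.5% lower in that comparison. At day 4 against day 3, 3 rose and 0 fell, beside 1.59% and 1.17% of all genes. With the days averaged, 10 of 10 were lower than in crypts (median -4.31), beside 32.8% of all genes. Among these markers Car4 had no count at day 3 or day 4, so on those days it could not be higher than in crypts. The part of these markers in the rise of the 9 genes was not tested. Cycling cell markers summed to 653 CPM at day 3, 503 CPM at day 4, 102 CPM at day 5 and 1407 CPM in crypts, and their part was not tested.

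The other 2 genes of the tip complex, Anks4b and Calml4, were measured alongside. Anks4b, the scaffold that pairs with harmonin, averaged 122 CPM in monolayers and 201 CPM in crypts, a log2 fold change of -0.74 ± 0.08 (SE; edgeR adjusted p = 1.65e-07). Calml4, the light chain of myosin 7b, averaged 332 CPM in monolayers and 199 CPM in crypts, a log2 fold change of 0.72 ± 0.08 (SE; edgeR adjusted p = 1.3e-07). Neither overlapped between monolayers and crypts. At day 5 against day 3, Anks4b rose by 0.49 (edgeR adjusted p = 0.00174) and Calml4 by 0.50 (edgeR adjusted p = 0.000439), on the log2 scale. Of the 6 genes of the complex measured here, Myo7b, Cdhr2 and Calml4 were therefore higher with the monolayer days averaged and Cdhr5, Ush1c and Anks4b lower. This division did not hold on every day. Cdhr2 did not pass at day 3 (edgeR adjusted p = 0.23) or, averaged, with library totals alone, and Ush1c did not pass at day 5 (edgeR adjusted p = 0.143).

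Per kilobase of exon, a scale on which levels of different genes can be compared, Ezr had the highest mean of the 9 in every group. In monolayers the order was Ezr at 718 CPM per kb, Cdhr2 at 165, Vil1 at 141, Pls1 at 127, Cdhr5 at 102, Myo7b at 90.3, Ush1c at 66.4, Myo1a at 17.3 and Espn at 1.94 CPM per kb. In crypts it was Ezr at 342 CPM per kb, Cdhr5 at 265, Vil1 at 192, Myo1a at 169, Cdhr2 at 130, Ush1c at 80.3, Pls1 at 79.6, Myo7b at 63.3 and Espn at 9.33 CPM per kb. Several neighbours lie within their spread, such as Ush1c and Pls1 in crypts, whose ranges overlap (72.1 to 87.0 CPM per kb and 74.7 to 86.3 CPM per kb). With the length of the principal transcript of each gene, the order of these means was the same, but Ezr and Cdhr5 overlapped in crypts (328 to 359 CPM per kb and 290 to 374 CPM per kb). As a share of the summed level per kb, Ezr took 50.5 ± 4.18% in monolayers and 25.8 ± 2.55% in crypts (SD), and Myo1a took 1.21 ± 0.149% in monolayers and 12.7 ± 1.51% in crypts (SD). Cdhr5 took 4.44% at day 3, 6.18% at day 4, 10.2% at day 5 and 19.9% in crypts. The summed level of the 9, in CPM, was 4755 ± 95.4 at day 3, 4809 ± 262 at day 4, 5499 ± 139 at day 5 and 4536 ± 320 in crypts (SD, n = 3 each). Ezr alone held a mean of 2319 CPM of it at day 3, 2240 CPM at day 4, 2254 CPM at day 5 and 1081 CPM in crypts. The sum therefore does not describe the other genes.

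**Figure D4:**
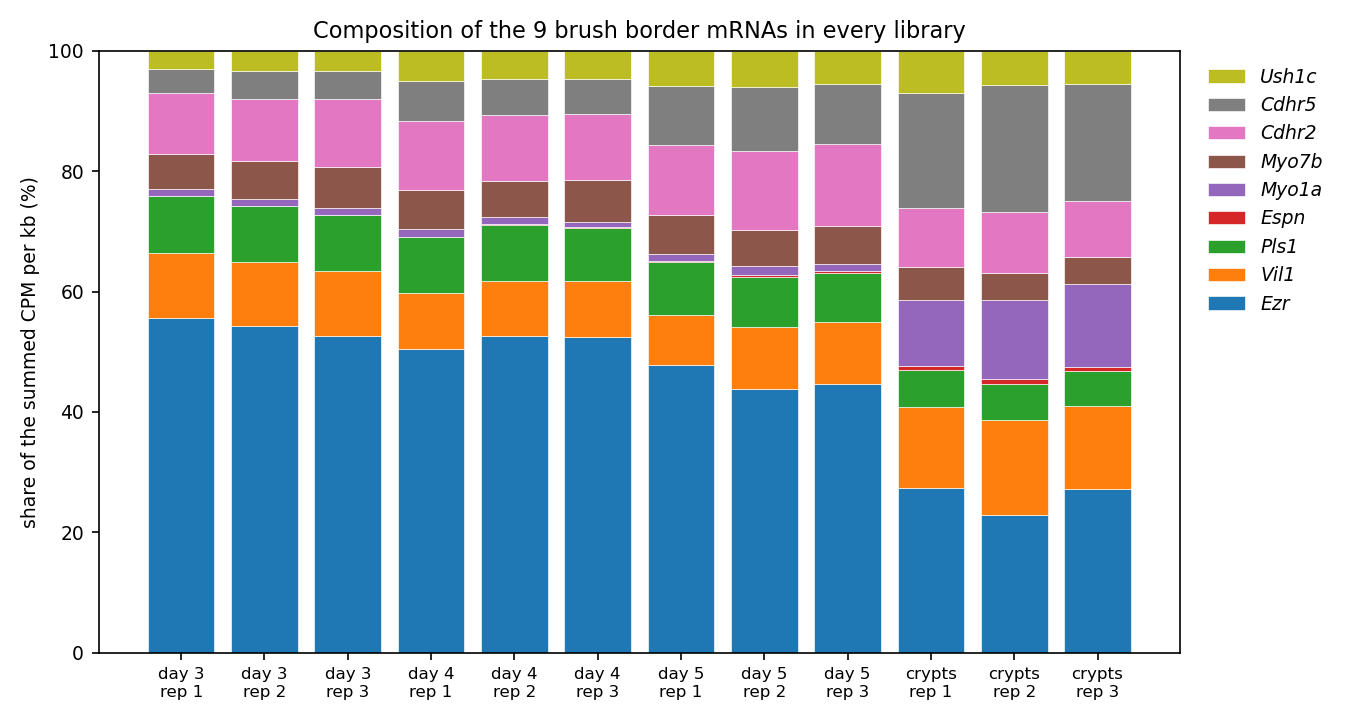
Share of the summed CPM per kb of exon taken by each of the 9 genes (y axis, percent) in each of the 12 libraries (x axis). The Ezr share is 43.9 to 55.6% in the monolayer libraries and 22.9 to 27.3% in the crypt libraries, and the Myo1a and Cdhr5 shares are larger in crypts.

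Proteins related to the 9 were examined through their paralogs, 23 genes of which 22 were in the tables and 19 were tested. Of these, 14 were higher in monolayers and 3 lower, beside 30.7% higher and 32.8% lower among all genes tested, and the median log2 fold change was 0.94, against -0.03 over all genes tested. Msn and Rdx encode moesin and radixin, the other members of the ezrin family. Msn had 225, 193 and 183 CPM at day 3, 166, 251 and 183 CPM at day 4, 142, 145 and 168 CPM at day 5, and 9.80, 12.9 and 4.42 CPM in crypts. Rdx averaged 138 CPM in monolayers and 25.7 CPM in crypts. All 9 monolayer libraries were above all crypt libraries for both genes, with log2 fold changes of 4.40 ± 0.23 for Msn (edgeR adjusted p = 7.56e-12) and 2.47 ± 0.19 for Rdx (edgeR adjusted p = 1.26e-09). The ratio of Ezr to Msn counts in a library averaged 12.8 in monolayers and 149 in crypts, where it ran from 80.5 to 258.

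Pls3, the plastin found in most tissues, averaged 282 CPM in monolayers and 24.4 CPM in crypts, a log2 fold change of 3.53 ± 0.10 (edgeR adjusted p = 9.04e-16). Its ratio to Pls1 changed with it, since Pls1 counts were 1.69 times the Pls3 counts in monolayers and 12.1 times in crypts. Lcp1, the plastin of white blood cells, was lower in monolayers, at 4.64 CPM against 16.6 CPM in crypts, and it is also among the leukocyte markers. In the villin family, Capg averaged 237 CPM in monolayers and 22.4 CPM in crypts, Vill 77.2 CPM in monolayers and 8.52 CPM in crypts, and Scin 23.3 CPM in monolayers and 303 CPM in crypts. All 3 passed, with log2 fold changes of 3.38, 3.21 and -3.81 in that order. Among myosins, Myo1c averaged 565 CPM in monolayers and 90.0 CPM in crypts (log2 fold change 2.64), and Myo7a, the hearing-related relative of Myo7b, 60.3 CPM in monolayers and 14.9 CPM in crypts (log2 fold change 1.99).

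**Figure D5:**
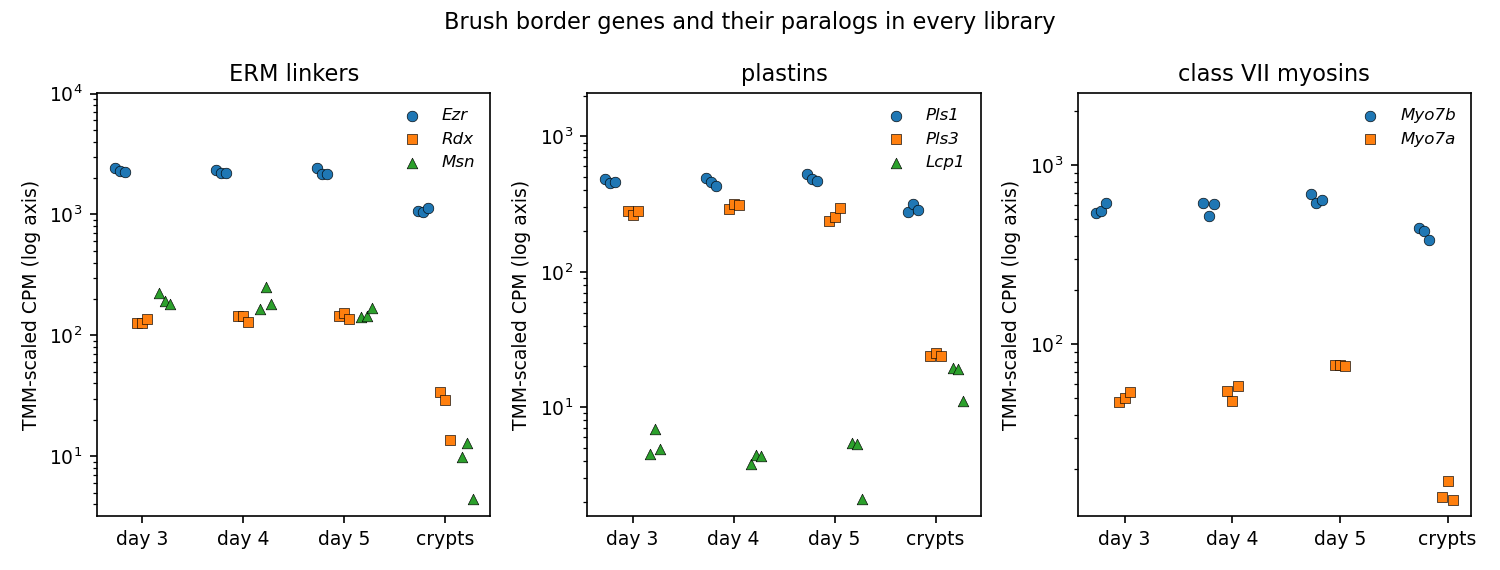
Level in TMM-scaled CPM (y axis, log scale) of Ezr, Pls1 and Myo7b beside their paralogs in each library, by group (x axis); levels of different genes are not per length and are compared only across groups. Rdx, Msn, Pls3 and Myo7a are higher in all 9 monolayer libraries than in the crypt libraries, Lcp1 is lower.

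Lists around the brush border gave the following counts in monolayers against crypts, a comparison in which 30.7% of all genes tested were called higher and 32.8% lower. Of 21 tested other microvillus genes, 8 were higher and 6 lower, and the median log2 fold change was 0.07, or -0.12 with library totals alone. Compared at day 5 against day 3, 9 of them were higher and 1 lower, beside 9.9% higher and 10.5% lower among all genes. Tmigd1, a membrane protein of the brush border that is also an absorptive colonocyte marker, was lower at 4.76 CPM in monolayers against 89.7 CPM in crypts. Baiap2l2, a membrane-bending protein, was lower at 4.67 CPM in monolayers against 89.3 CPM in crypts. Prom1, which sits on membrane protrusions, was higher at 1565 CPM in monolayers against 509 CPM in crypts, and Clic4, an intracellular channel protein, was higher at 249 CPM in monolayers against 67.1 CPM in crypts. Ceacam1, an adhesion receptor of the apical membrane, was lower, at 1264 CPM in monolayers against 4272 CPM in crypts. Prom2, a relative of Prom1, was higher but scarce, at 1.57 CPM in monolayers against 0.267 CPM in crypts. It no longer passed without crypts replicate 2 or crypts replicate 3. It passed the filter on low counts through monolayers alone, which favours that direction. Eps8, which caps and bundles actin at microvillus tips, was at 340 CPM in monolayers and 244 CPM in crypts, a log2 fold change of 0.47 (edgeR adjusted p = 7.71e-05).

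Among 11 tested ezrin partners and kinases, which include Msn and Rdx, 4 were higher in monolayers and 5 lower, shares that lie near those of all genes (30.7% and 32.8%), with a median log2 fold change of 0.24, or 0.055 with library totals alone. Slc9a3r1, which encodes the ezrin-binding adaptor EBP50, was at 251 CPM in monolayers and 210 CPM in crypts and did not pass (edgeR adjusted p = 0.0514), although it passed in 6 of 17 other settings. The related adaptor Slc9a3r2 was lower, at 3.93 CPM in monolayers against 18.2 CPM in crypts, and so was Pdzd3, at 0.864 CPM in monolayers against 17.4 CPM in crypts. Cd44, a membrane receptor that ezrin binds, was higher, at 427 CPM in monolayers against 129 CPM in crypts. Stk10, a kinase that phosphorylates ezrin, was lower, at 44.5 CPM in monolayers against 107 CPM in crypts. Of 13 stereocilia genes found, relatives of the brush border set in the inner ear, 4 had enough counts to test, of which 1 was higher (Myo7a) and 2 lower. Whrn was called lower, at 20.4 CPM in monolayers against 26.7 CPM in crypts, but not without crypts replicate 1, without crypts replicate 2 or with no filter on low counts. Myo3a, a motor of stereocilia tips, was the other, with 1 count in all monolayer libraries together and 20.3 CPM on average in crypts. It passed the filter on low counts through crypts alone, so its direction was all but set in advance.

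Of 24 tested terminal web and cortical cytoskeleton genes, which lie under the microvilli, 19 were higher in monolayers and 3 lower, beside 30.7% and 32.8% of all genes, with a median log2 fold change of 0.53 against -0.03 over all genes tested. With library totals alone 16 were higher and 3 lower, with a median of 0.35. Among those that rose were the tropomyosins Tpm2, at 226 CPM in monolayers against 12.9 CPM in crypts, and Tpm4, at 614 CPM in monolayers against 133 CPM in crypts. Krt18, a keratin, was higher at 2337 CPM in monolayers against 518 CPM in crypts, as were the junction protein gene Cgnl1, at 606 CPM against 96.2 CPM in crypts, and the non-muscle myosin gene Myh10, at 5.69 CPM against 1.15 CPM in crypts. Krt20, a keratin of differentiated intestinal cells, was lower, at 92.9 CPM in monolayers against 1267 CPM in crypts. Of 17 apical trafficking genes, 10 were higher and 2 lower, with a median of 0.38, and with library totals alone 9 were higher and 3 lower, with a median of 0.19. Rab11fip5, a partner of the recycling GTPase RAB11, was at 123 CPM in monolayers and 3.94 CPM in crypts, and the polarity gene Pard6b at 234 CPM in monolayers and 38.3 CPM in crypts. Mal, Rab11a and Mal2 were higher as well, with log2 fold changes of 1.59, 0.86 and 0.72, and Vps33b was lower, at -0.90.

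The brush border hydrolases, digestive enzymes anchored in the same membrane, were mostly lower: 0 of 13 tested were higher in monolayers and 11 were lower, with a median log2 fold change of -4.99, beside 30.7% higher and 32.8% lower among all genes. Their RNA was not absent from monolayers. Summed over 18 genes, it was 575 ± 122 CPM in monolayers (SD, n = 9) and 1241 ± 117 CPM in crypts (SD, n = 3). The hydrolases named next were picked for the largest changes and hold little of the monolayer sum. Of these, Sis, Anpep, Naaladl1, Enpep and Ggt1 passed the filter on low counts through crypts alone. Their direction was thus all but set in advance, and they count in the 11 and in the median. The share of lower hydrolases is therefore not a free comparison with that of all genes. Dpp4, a dipeptidyl peptidase, averaged 1.48 CPM in monolayers and 71.4 CPM in crypts, a log2 fold change of -5.55 (edgeR adjusted p = 2.7e-13). Sis, for sucrase-isomaltase, had no count in any monolayer library and averaged 17.0 CPM in crypts, at least 508-fold lower with a floor of 3 counts in all monolayer libraries together. That bound lies below the median of the list, which therefore does not depend on the fitted value of Sis. Naaladl1 averaged 0.322 CPM in monolayers and 37.0 CPM in crypts, Enpep 0.288 CPM in monolayers and 15.8 CPM in crypts, and Ggt1 0.180 CPM in monolayers and 4.42 CPM in crypts. Anpep, an aminopeptidase, had 5 counts in all monolayer libraries together and ran from 3.15 to 77.4 CPM in crypts. Between day 5 and day 3, 5 of 13 hydrolases rose at day 5 and 0 fell, beside 9.9% higher and 10.5% lower among all genes.

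Among 16 transcription factors of enterocyte genes, 1 was higher in monolayers and 11 lower (median log2 fold change -0.42), beside 30.7% and 32.8% of all genes. Of the same factors 4 rose at day 5 against day 3 and 0 fell, beside 9.9% and 10.5% of all genes. Hnf4a had 471 CPM in monolayers and 647 CPM in crypts, a log2 fold change of -0.47 (edgeR adjusted p = 9.67e-06), and it rose by 0.37 on the log2 scale at day 5 against day 3 (edgeR adjusted p = 0.00511). Cdx2 had 91.8 CPM in monolayers and 130 CPM in crypts, with overlapping libraries and a log2 fold change of -0.51 (edgeR adjusted p = 0.00131). Cdx1 was lower, at 9.09 CPM in monolayers against 138 CPM in crypts, as was Ppara, at 0.948 CPM in monolayers against 35.0 CPM in crypts. Klf4 and Hnf4g were lower, with log2 fold changes of -2.23 and -1.68, and Pparg was the factor that was higher, at 0.93. Of the remaining marker lists, enteroendocrine markers summed to 37.0 CPM in monolayers and 876 CPM in crypts, tuft cell markers to 7.12 CPM in monolayers and 46.4 CPM in crypts, endothelial markers to 2.21 CPM in monolayers and 4.40 CPM in crypts, and red blood cell markers to 0 in monolayers and 2.49 CPM in crypts. Their part in these results was not tested.

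Genes whose pattern was most like each of the 9 over all 12 libraries were found by the root mean square difference of log2 CPM, centred on each gene's own mean, among 8973 genes of at least 8 CPM. The nearest to Ezr were Lrrc58, Myh9 and Dpysl2 (0.0644 to 0.0761), to Pls1 Trip12, Picalm and Pitpna (0.0607 to 0.0677), and among those nearest to Myo7b were Bag6 and Klhl11 (0.0651 and 0.0818). The nearest to Vil1 were Nsf, Mccc1 and Opa1 (0.0875 to 0.0914), to Cdhr2 Mfn2, Shroom3 and Myo6 (0.0777 to 0.0898), and among those nearest to Ush1c were Acox3 and Epcam (0.104 and 0.106). For Espn they were Mettl7b, Ctss and Smpdl3a (0.31 to 0.315), for Myo1a Cgref1, Gne and Hsd3b3 (0.235 to 0.274) and for Cdhr5 Inpp5j, Adtrp and Hpgd (0.131 to 0.169). Larger changes leave more room for difference, so the distances are not comparable between the 9. Among the 9 themselves, Pls1 and Myo7b were nearest each other, at 0.137, and Espn and Cdhr5 were nearest each other, at 0.515.

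Vil1, Ezr and Ush1c share exon bases with a neighbour on the opposite strand in the annotation: Vil1 with Usp37 (49 bases), Ezr with Sytl3 (4 bases) and Ush1c with Gm9860 (120 bases), which is not in the count tables. No label says whether counting used strand, so reads in those bases cannot be assigned to a strand. The other 6 share no exon bases with another gene.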

How the data were processed

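Total RNA of mouse colonic monolayers and crypts was sequenced in 12 libraries, grouped by the labels alone. The authors deposited raw read counts per gene, 1 table per library, not normalized. The tools named in the submitters' processing notes are CASAVA 1.9, TopHat2 and HTSeq, and the notes name both mm9 and mm10. No source used here gives the gene annotation or strand setting. Each deposited table held 23420 gene symbols and 5 summary lines, which stayed out of totals and tests. Reads in no gene made up 38.7 to 42.8% of the reads in these lines and genes in monolayers and 45.6 to 49.0% in crypts. Reads with no unique alignment made up 14.2 to 18.3% in monolayers and 18.5 to 19.2% in crypts, so genes that have near-identical copies have uncertain counts. Reads in genes made up 41.8 to 43.5% in monolayers and 31.7 to 35.6% in crypts. None of these ranges overlapped between monolayers and crypts, and their part in the changes against crypts was not tested.

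Counts were tested with edgeR 4.0.16 in R 4.3.3: filterByExpr with a minimum count of 10, TMM factors from 0.91 to 1.12, then quasi-likelihood testing in 1 fit of all 12 libraries with group as the only term. Monolayers (the 3 days averaged) and then each day alone were set against crypts, and the days against each other. Adjustment ran over 12863 genes by the Benjamini-Hochberg method, with a threshold of 0.05. The SE of a log2 fold change is its size divided by the square root of F. Ratios within a library used raw counts. Exon lengths, transcripts and overlaps came from the GENCODE annotation of GRCm38 and promoter sequences from RefSeq (GRCm38.p6). Intervals and floors cover counting error only.

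The test was checked only on counts simulated from its own fitted spread, which cannot show whether that spread or the scaling suits these data. No pair of replicates agreed within sampling noise (chi-square per degree of freedom 5.40 to 26.5), so all 12 libraries were used. Replicate numbers did not pair the libraries and serve as names. Alternatives were RLE factors, library totals, DESeq2 1.42.0, no filter on low counts, a replicate block, the compared groups alone, and leaving out each library.

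The 9 genes and all lists were chosen with earlier results of these data known. Named genes were the 9, per list up to 6 genes called between monolayers and crypts (mean 1 CPM or more, largest change first), and Anks4b, Calml4, Hnf4a, Cdx2, Pls3, Msn, Rdx, Eps8 and Slc9a3r1 whatever their values. Lcp1, the other plastin gene, was added after its values were seen. For the 3 genes most like each of the 9, unnamed gene models were passed over. Promoters for Myo7b and protein sequences are not used here. Some genes that these rules name are not reported here.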

Additional observations from a re-analysis of the deposited data

Results flagged for a closer look

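Changes against crypts that differed between day 3 and day 5 are given here, each tested as the difference itself in the edgeR fit (day 5 against day 3, which is the day 5 change from crypts minus the day 3 change). They were higher at day 5 by 2.12 for Espn, 1.42 for Cdhr5, 1.04 for Ush1c, 0.50 for Calml4, 0.49 for Anks4b and 0.49 for Cdhr2, on the log2 scale, in 3 of 3 day 5 libraries against every day 3 library. The largest edgeR adjusted p of the 6 was 0.00174, for Anks4b. With any 1 library left out, the calls on Espn, Cdhr5, Ush1c and Cdhr2 in this comparison held. Beyond such refits, groups of 3 were not examined for single outlying libraries.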

How the results depend on the processing

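Over the planned settings other than leaving out a library, 358 of 369 values of the 9 genes kept their direction and side of the threshold, 4 no longer passed, 4 newly passed and 3 changed sign. With 1 library left out, 721 of 756 did so, 17 no longer passed, 7 newly passed and 11 changed sign. No value that changed sign had passed. With library totals alone, the log2 fold change was -0.039 for Cdhr2 at day 3 against crypts, -0.042 for Ush1c at day 5 against crypts and -0.025 for Ezr at day 5 against day 4. With 1 library left out, values at day 4 against day 3 ran from -0.065 to 0.036 for Pls1, from -0.016 to 0.10 for Myo7b and from -0.17 to 0.11 for Myo1a, and for Ezr at day 5 against day 4 from -0.053 to 0.036. Library totals, which leave out the TMM factors, moved the median log2 fold change of all genes in monolayers against crypts from -0.03 to -0.21. The TMM factors ran from 0.910 to 1.002 in the monolayer libraries and from 1.077 to 1.117 in the crypt libraries, with no overlap. Why the factors differed between monolayers and crypts was not tested. The number of genes called at day 4 against day 3 was 356, against 631 with DESeq2, 636 with no filter on low counts and 1144 with the compared groups alone, and the cause was not tested. With 1 library left out it ran from 94 (without day 4 replicate 1) to 490 (without crypts replicate 2). At day 5 against day 4 it was 972 and ran from 536 (without day 4 replicate 2) to 1207, at day 5 against day 3 it was 2620 and ran from 1811 to 2871, against crypts it was 8163 for monolayers (7643 to 8723), 7245 at day 3 (6539 to 7908), 7339 at day 4 (6827 to 7991) and 7371 at day 5 (6891 to 7518). Same-numbered libraries did not deviate together (18 pairs, r from -0.03 to 0.06, 0 over 0.1; best match in 11 of 36 comparisons). With the replicate block the counts were 7996 for monolayers, 7060, 7192 and 7228 for day 3, day 4 and day 5 against crypts, 314 at day 4 against day 3, 900 at day 5 against day 4 and 2463 at day 5 against day 3, and no call on the 9 genes changed. Depth limits Espn most, with 41 to 228 counts in the monolayer libraries.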
